A study of Mus musculus with 17 samples.

Results

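The genes described here are 48 genes of DNA replication, taken by name for their textbook roles in copying the genome, from licensing of origins to joining of the new strands. They are 48 of 55536 genes in the count table, and all 48 were among the 15352 genes that passed the filter on low counts. By role they comprise 10 licensing genes (Orc1, Orc6, Cdc6, Cdt1 and Mcm2 to Mcm7), 6 of helicase activation (Mcm10, Cdc45, Gins1 to Gins4), 4 of primase and polymerase alpha (Pola1, Pola2, Prim1, Prim2) and 5 of polymerases delta and epsilon (Pold1, Pold2, Pold3, Pole, Pole2). The other roles are the sliding clamp and its loaders (Pcna, Rfc2 to Rfc5, Dscc1), binding of single-stranded DNA (Rpa1 to Rpa3), nucleotide supply (Rrm1, Rrm2, Tyms, Tk1), Okazaki fragment joining (Fen1, Lig1), histone supply and chromatin assembly (Slbp, Chaf1a, Chaf1b), and cyclin E, E2F and checkpoint genes (Ccne1, Ccne2, E2f1, E2f8, Clspn). The RNA came from mouse spleen B cells sorted by flow cytometry as naive, activated or germinal centre (GC) cells. The 2 genotypes are wild type (WT) and p52 knock-in (p52ki). The labels do not describe the allele carried; p52 is an NF-κB subunit made from the product of Nfkb2. Each group held 3 libraries, except that p52ki GC cells had 2: the replicates are 1, 3 and 4 in WT, 2, 3 and 5 in p52ki naive and activated cells, and 2 and 5 in p52ki GC cells. The labels used here give no strain, age, immunization or sorting gate.

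Replication starts in G1, when the origin recognition complex, Cdc6 and Cdt1 load the Mcm2 to Mcm7 ring onto DNA as an inactive helicase. On entry into S phase, Cdc45 and the GINS complex join the ring and turn it into the active helicase, polymerase alpha lays down primers, and polymerases delta and epsilon extend them on the Pcna clamp. Many of these genes are transcribed at the G1 to S transition under E2F factors, and germinal centre B cells are known for dividing very fast.

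Levels are given as CPM, the normalised read count relative to the library total after TMM scaling, and values of several libraries are listed in the order of the replicate numbers above. The libraries held 4067281 to 10036347 counts. Between 16745 and 19672 genes were detected in the 12 naive and activated libraries, 18449 and 19135 in WT GC replicates 1 and 4, but 11232 in WT GC replicate 3, and 11390 and 13044 in the p52ki GC libraries. Of the tested genes 31.7% were at 0 in WT GC replicate 3, 30.8% in p52ki GC replicate 2 and 22.4% in p52ki GC replicate 5, against 0.918% to 5.25% in the naive and activated libraries. Nfkb2 had 63.2, 41.7 and 58.4 CPM in WT GC cells and 119.7 and 73.98 CPM in p52ki GC cells, a log2 difference of 0.83 ± 0.30 (SE, adjusted p = 0.073), and a transcript total does not check a knock-in label. All 7 B cell markers were detected in each GC library. Their sums ran from 9731 to 11594 CPM in WT GC libraries and from 12728 to 15799 CPM in p52ki GC libraries, without overlap. Bcl6, the master factor of germinal centre cells, was called higher in GC than in activated cells of both genotypes. Its means in naive, activated and GC cells were 42.6, 16.4 and 99.2 CPM in WT and 44.0, 18.3 and 81.5 CPM in p52ki. The libraries are numbered 1 to 12 in WT and 19 to 30 in p52ki, so a batch in that order cannot be told apart from genotype. Whether replicates came from different mice is not stated, and the p-values therefore rest on a spread between libraries that may be technical. WT GC replicate 3 had a Spearman correlation of 0.792 with replicate 1 and 0.814 with replicate 4, which had 0.975 with each other. The p52ki GC libraries had 0.766, and pairs within naive and activated groups 0.935 or more. The spread was estimated over all groups together, so p-values for GC cells draw partly on these more alike libraries.

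The 250 bases before the transcription start are shown for 4 members, because E2F sites are the textbook feature shared by this set. Mcm5, Mcm6 and Pola1 carry an exact E2F octamer there and Rrm1 does not. Pola1 and Rrm1 were both called lower in p52ki GC cells, and Mcm5 and Mcm6 were estimated lower but not called. These 4 are examples only, and whether an octamer goes with the lower calls was not tested. The sequences are from RefSeq on GRCm38.p6, each 5′ to 3′ on the strand of its gene. Capitals mark exact matches, on either strand, to TTTCCCGC, TTTCGCGC, TTTGCCGC or TTTGGCGC. A site that differs from these by a single base is not marked. Mcm5 lies at chr8:75109259-75109508 (plus strand), Mcm6 at chr1:128359706-128359955 (minus strand), Pola1 at chrX:93632156-93632405 (minus strand) and Rrm1 at chr7:102441445-102441694 (plus strand).
Mcm5: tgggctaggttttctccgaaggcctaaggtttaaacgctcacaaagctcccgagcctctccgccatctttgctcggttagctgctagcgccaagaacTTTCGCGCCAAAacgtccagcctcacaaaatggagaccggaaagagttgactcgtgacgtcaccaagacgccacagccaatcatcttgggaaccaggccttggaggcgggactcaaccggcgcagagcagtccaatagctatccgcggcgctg
Mcm6: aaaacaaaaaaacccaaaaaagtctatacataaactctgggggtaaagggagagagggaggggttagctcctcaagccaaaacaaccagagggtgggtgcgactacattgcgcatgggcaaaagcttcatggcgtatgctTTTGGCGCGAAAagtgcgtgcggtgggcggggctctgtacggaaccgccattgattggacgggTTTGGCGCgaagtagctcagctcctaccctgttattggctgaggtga
Pola1: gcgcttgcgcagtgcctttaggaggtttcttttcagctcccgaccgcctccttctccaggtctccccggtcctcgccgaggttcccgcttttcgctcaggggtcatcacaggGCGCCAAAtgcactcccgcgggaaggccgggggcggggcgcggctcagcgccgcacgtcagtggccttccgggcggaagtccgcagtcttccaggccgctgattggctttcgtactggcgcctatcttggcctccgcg
Rrm1: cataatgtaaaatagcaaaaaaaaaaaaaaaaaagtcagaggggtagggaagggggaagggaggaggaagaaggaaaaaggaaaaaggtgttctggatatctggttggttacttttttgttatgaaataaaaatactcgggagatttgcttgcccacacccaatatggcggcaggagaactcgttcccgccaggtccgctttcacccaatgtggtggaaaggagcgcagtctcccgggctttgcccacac
In Mcm5 an octamer on the plus strand, starting 153 bases before the start site, overlaps an octamer on the minus strand at 149 bases, so that both form a single run of capitals. Mcm6 has the same kind of overlapping pair, at 110 and 106 bases before the start, and a further octamer at 47 bases, while the match in Pola1 begins 138 bases before its start. RefSeq windows were found for 39 of the 48 members, with Mcm4, Gins1, Gins2, Gins4, Prim2, Pole, Rfc2, Dscc1 and Ccne2 unmatched. In windows of 250 bases before to 50 bases after the start, an octamer was found in 15 of the 39 members (38.5%), namely Cdc6, Cdt1, Clspn, Gins3, Lig1, Mcm3, Mcm5, Mcm6, Mcm7, Orc1, Pola1, Pold1, Pold3, Pole2 and Rfc3, against 2.60% of 27025 genes with such windows. In the 250 bases before the start alone it was found in 8 members (20.5%), against 2.16% of genes. The CCAAT box, searched as CCAAT on both strands, was found in 24 members (61.5%) against 41.1% of genes, the CHR element TTTGAA in 6 (15.4%) against 20.2%, and the ETS motif CCGGAAGT in 8 (20.5%) against 4.31%. The median GC content of the members' windows was 61.3%, against 52.7% for all windows. A match is a description of letters and no measure of binding.

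The summed level of the 48 genes was lower in naive and activated cells than in GC cells, and among GC cells it was lower in p52ki than in WT; these sums carry no test. It was 2061, 1963 and 2036 CPM in WT naive cells, 2331, 2002 and 2409 CPM in WT activated cells, and 9722, 5678 and 10135 CPM in WT GC cells. In p52ki cells it was 1919, 1963 and 1954 CPM when naive, 2162, 2508 and 1898 CPM when activated, and 3450 and 5073 CPM in GC cells. Every GC library lay above every naive and activated library, and both p52ki GC libraries lay below all WT GC libraries, with p52ki GC replicate 5 and WT GC replicate 3 close to each other. In bulk RNA a smaller share of cells in S phase and less of each message per cell cannot be told apart.

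**Figure D1:**
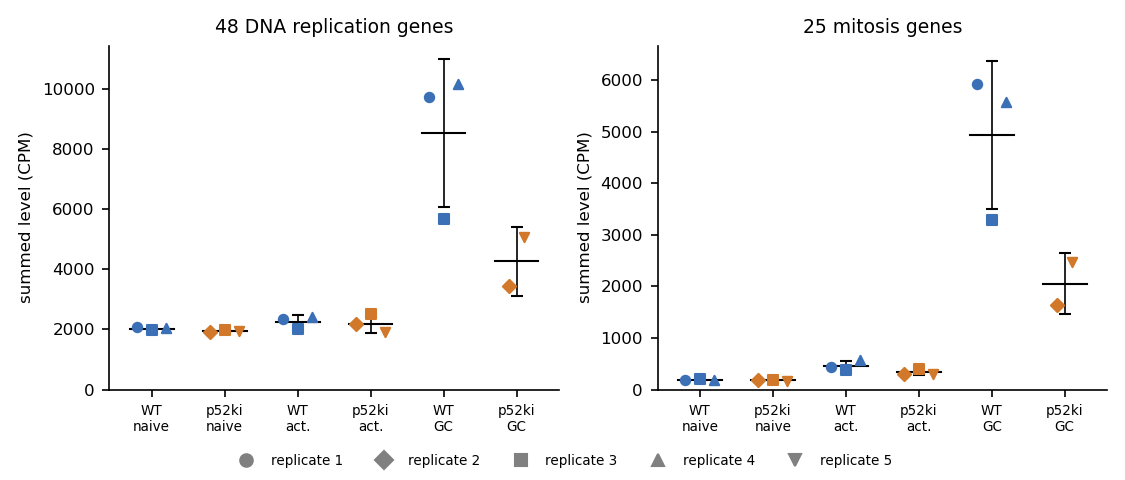
Summed level in CPM (vertical axis) of the 48 replication genes (left) and of 25 mitosis genes (right) in each of the 17 libraries, by genotype and stage (act., activated). Points are libraries, with the marker giving the replicate number, bars are group means and whiskers SD; the WT GC libraries hold 5678 to 10135 CPM of replication genes and the p52ki GC libraries 3450 and 5073 CPM.

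In WT, most replication genes rose from activated to GC cells. Of the 48, 35 were called higher and 0 lower by the quasi-likelihood test of edgeR (adjusted p under 0.05, Benjamini-Hochberg), where 5.8% of all tested genes were called higher and 7.75% lower (13.6% in all). All 48 differences were positive, with a median of 2.11 on the log2 scale against -0.13 over all tested genes, and 38 members lay above every activated library (11.7% of tested genes did so) and 0 below (19.5%). Every nucleotide supply gene and both Okazaki fragment genes were called, as were 8 of 10 licensing genes, 5 of 6 clamp and loader genes, 4 of 5 cyclin E, E2F and checkpoint genes and 4 of 6 helicase activation genes. Polymerases delta and epsilon had 2 of 5 called and primase and polymerase alpha 2 of 4, with 2 of 3 each for single-strand binding and for histone supply and chromatin assembly. The 13 members not called were Cdc6, Cdt1, Gins3, Gins4, Pola2, Prim2, Pold2, Pold3, Pole, Dscc1, Rpa3, Chaf1a and Ccne1.

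The 3 members with the smallest p in this comparison were Ccne2, Clspn and Pcna. Ccne2, a cyclin that drives Cdk2 at S phase entry, had 22.9, 23.6 and 27.2 CPM in activated and 157, 159 and 160.3 CPM in GC cells, a log2 difference of 2.69 ± 0.27 (SE, adjusted p = 2.55e-05). Clspn, the claspin adaptor of the replication checkpoint, went from 1.64, 2.83 and 3.66 CPM to 61.3, 62.1 and 48.8 CPM, a log2 difference of 4.39 ± 0.50 (adjusted p = 5.7e-05). Neither gene's GC libraries overlapped the activated ones, and the 3 GC values of each lay close together. Pcna, the sliding clamp, had 197, 124 and 170.4 CPM in activated and 481, 620.0 and 649 CPM in GC cells, a log2 difference of 1.83 ± 0.22 (adjusted p = 0.000103). Per kb of exon Pcna was also the highest member in WT GC cells, at a mean of 243 CPM per kb. The largest p belonged to Chaf1a, a subunit of the histone chaperone CAF-1, with 25.1, 36.8 and 40.9 CPM in activated and 73.7, 49.1 and 45.98 CPM in GC cells, and to Pold3, an accessory subunit of polymerase delta, with 13.3, 52.9 and 41.6 CPM in activated and 82.5, 0 and 77.9 CPM in GC cells. The Pold3 spread came mainly from WT GC replicate 3, where no count was found, which allows up to 0.611 CPM.

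With each of the 6 WT GC and activated libraries left out in turn, 28 of the 35 calls held in all 6 fits. Mcm10 was lost without WT activated replicate 1 or 3 (adjusted p up to 0.0688), and E2f8 without WT activated replicate 4 (0.0525). Rpa2 was lost without WT GC replicate 4 or WT activated replicate 3 (up to 0.0718), and Pole2 without WT GC replicate 4 or WT activated replicate 3 or 4 (up to 0.0626). Orc1 was lost without WT GC replicate 1 or 4 or WT activated replicate 3 or 4 (up to 0.164), Rfc2 without WT GC replicate 3 or 4 or WT activated replicate 3 or 4 (up to 0.116), and Pold1 in every fit but the one leaving out WT GC replicate 3 (up to 0.164). Fitting only the 2 groups compared left 23 calls, with the share over all tested genes in that fit not given here.

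**Figure D2:**
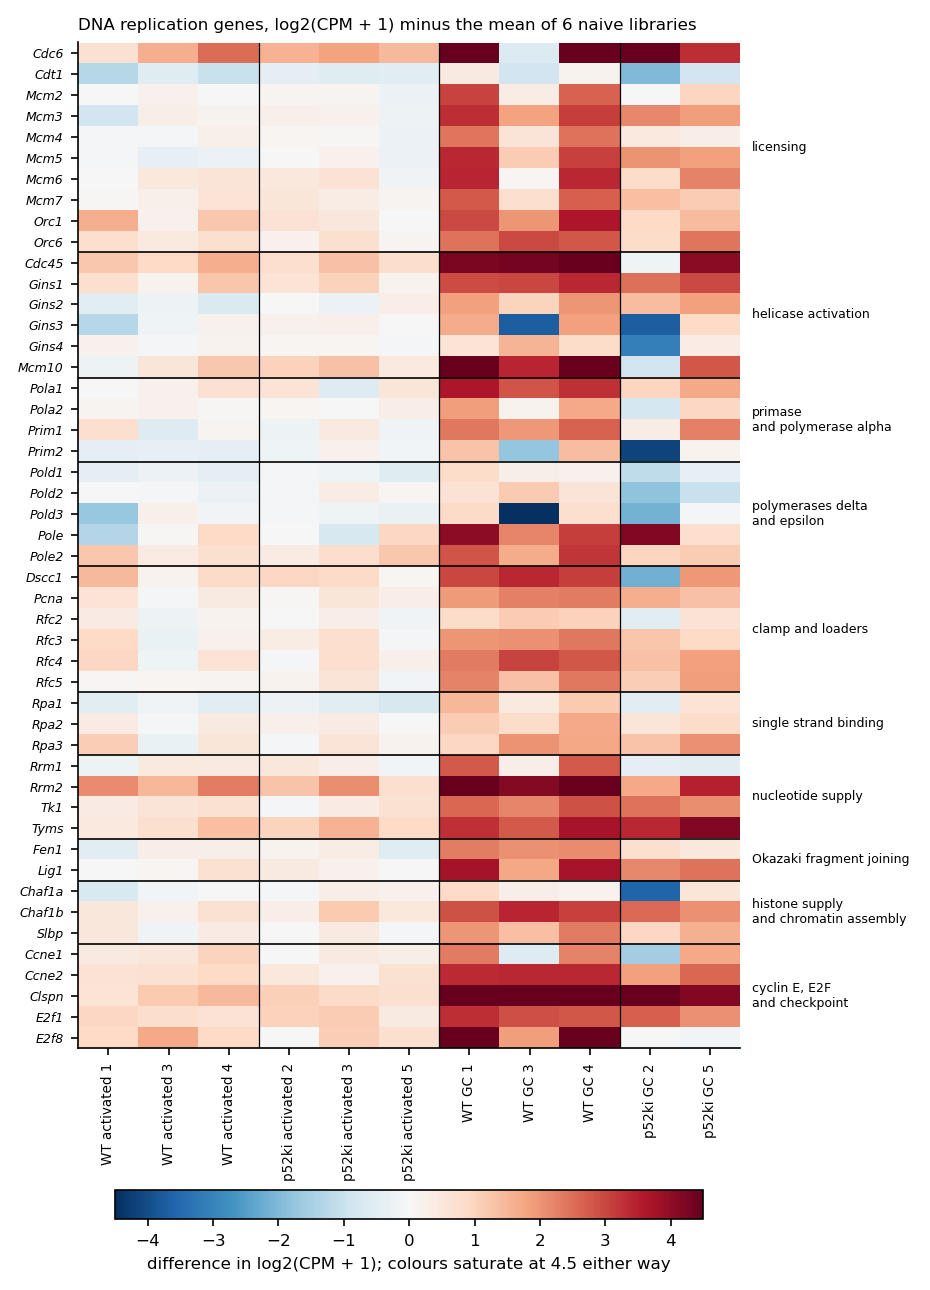
Heat map of the 48 replication genes (rows, by role) in activated and GC libraries (columns); colour is log2(CPM + 1) minus the mean over the 6 naive libraries, and saturates at 4.5 either way. WT GC replicates 1 and 4 are high across nearly all rows, whereas WT GC replicate 3 and p52ki GC replicate 2 each hold members with no count, such as Gins3 in both.

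In p52ki cells 21 of the 48 members rose over the same step and 1 fell, where 6.34% of tested genes were called higher and 19.3% lower (25.6% in all), and the median difference was 1.15 against -0.41 over all tested genes. In 26 members both GC libraries lay above all activated libraries and in 4 (Cdt1, E2f8, Pold2 and Rrm1) below, against 15.2% and 38.2% of tested genes. Clspn had 2.55, 2.11 and 1.79 CPM in activated and 55.5 and 29.5 CPM in GC cells, a log2 difference of 4.29 ± 0.51 (SE, adjusted p = 0.0001). Ccne2 had 20.2, 16.5 and 23.5 CPM in activated and 54.02 and 91.4 CPM in GC cells, a difference of 1.86 ± 0.28 (adjusted p = 0.000505). Tyms, thymidylate synthase, which makes the thymidine nucleotide, had 14.7, 22.2 and 13.6 CPM in activated and 81.4 and 139 CPM in GC cells, a difference of 2.71 ± 0.46 (adjusted p = 0.00112). In all 3 genes, which have the smallest p here, both GC libraries stood well above the activated ones.

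Pold2, the second subunit of polymerase delta, was the only member called lower in this step, from 23.6, 31.4 and 26.1 CPM in activated to 6.30 and 11.97 CPM in GC cells, a log2 difference of -1.56 ± 0.39 (adjusted p = 0.0112). The largest p belonged to Gins3, with 13.8, 14.2 and 12.3 CPM in activated and 0 and 23.5 CPM in GC cells, and to Pola2, the regulatory subunit of polymerase alpha, with 32.4, 30.7 and 37.5 CPM in activated and 16.96 and 59.1 CPM in GC cells. Both have 1 GC library below and 1 above the activated range. By role, 3 of 10 licensing genes were called higher (Mcm3, Mcm5, Orc6), 3 of 6 of helicase activation (Cdc45, Gins1, Gins2), 3 of 6 clamp and loader genes (Pcna, Rfc4, Rfc5), 3 of 5 cyclin E, E2F and checkpoint genes (Ccne2, Clspn, E2f1) and 2 of 4 nucleotide supply genes (Tyms, Tk1). Primase and polymerase alpha had 2 (Pola1, Prim1), histone supply and chromatin assembly 2 (Slbp, Chaf1b), and polymerases delta and epsilon (Pole), single-strand binding (Rpa3) and Okazaki fragment joining (Lig1) 1 each. Of these 21 calls, 11 held with each of the 5 p52ki libraries left out in turn, as did the call of Pold2. Leaving out p52ki GC replicate 5 lost Pola1, Slbp, Rfc5, Rpa3, Prim1, Orc6, Cdc45 and Rfc4, and leaving out p52ki GC replicate 2 lost E2f1 and Pole. Among the activated libraries, replicate 2 lost Pole, Prim1 and Cdc45, replicate 3 lost Pola1, Pole and Cdc45, and replicate 5 lost all 4 of these and E2f1. The highest adjusted p of a lost call was 0.709, for Pole. Without p52ki GC replicate 5 there were 13 higher and 7 lower calls (Cdt1, Chaf1a, Dscc1, Gins3, Gins4, Pold2, Prim2), where 7.81% and 24.8% of tested genes were called. The voom test of limma with quality weights left 6 calls higher and 0 lower, and fitting only the groups compared left 11 and 0. For these counts too the share over all tested genes is not given here.

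**Figure D3:**
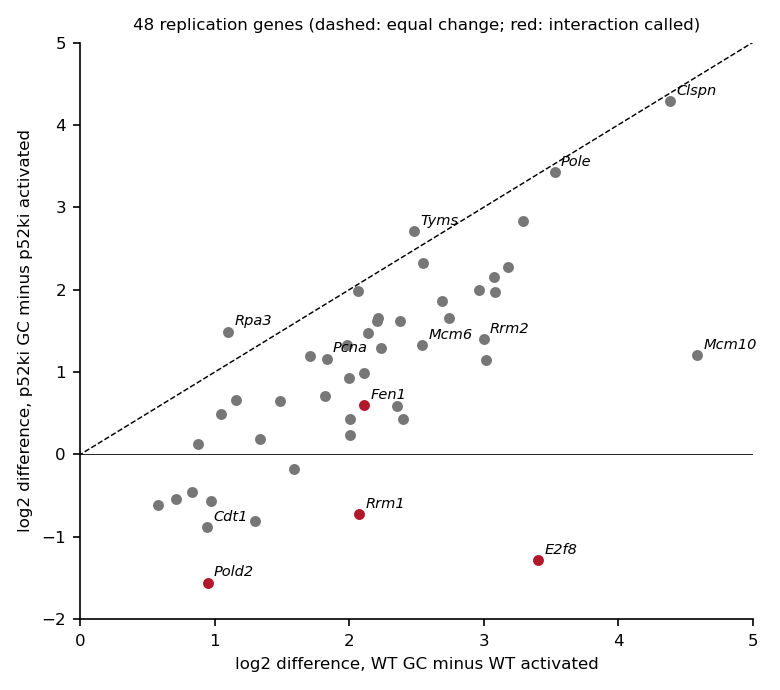
Log2 difference between GC and activated cells of each of the 48 replication genes in WT (horizontal axis) and in p52ki (vertical axis); the dashed line marks an equal change, and red points are the 4 genes whose change differed between genotypes (Pold2, Rrm1, E2f8, Fen1). Of the 48 points 46 lie below the dashed line; Tyms and Rpa3 lie above it.

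Within GC cells, 12 replication genes were called lower in p52ki than in WT and 0 higher. They were Mcm2, Mcm4, Pola1, Pold1, Pold2, Pole2, Rfc4, Rrm1, Rrm2, Fen1, Ccne2 and E2f8, and over all tested genes 12.2% were called lower and 3.75% higher (16.0% in all). In this fit the members' 12 of 48 is a larger share than the background, but that did not hold in every fit given below. The difference was negative in 46 of 48 members, with a median of -1.04 on the log2 scale against -0.32 over all tested genes. Both p52ki libraries lay below all 3 WT libraries in 24 members, where 15.4% of tested genes did so, and above them in 0, where 9.45% did. Fen1, Pold2, Rrm1 and E2f8 were called lower in all 5 fits that left out 1 GC library. The count of lower calls was 21 when WT GC replicate 3 was left out (20.2% of tested genes lower, 8.52% higher), 26 when p52ki GC replicate 5 was (19.8% and 7.08%), and 4 when p52ki GC replicate 2 was (9.48% lower). DESeq2 called 19 lower, all 12 among them, whereas fitting the GC groups alone, or limma voom with quality weights, left 0. The shares of all tested genes called in these 3 settings are not given here, so their counts are not read as a result about the members. With the GC groups alone the estimates moved little, such as -1.46 for Fen1 and -2.22 for Pold2.

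WT GC replicate 3 is the WT library with as few detected genes as the p52ki GC libraries. Against that library alone, 5 members were called lower (Ccne2, E2f8, Fen1, Pold2, Rfc4) and 4 higher (Cdc6, Gins3, Mcm6, Pold3), where 8.19% of tested genes were called lower and 15.5% higher. With the mean of WT GC replicates 1 and 4 as reference, on log2(CPM + 1), the members' median was -0.87 in WT GC replicate 3, -1.74 in p52ki GC replicate 2 and -0.92 in p52ki GC replicate 5. Over all tested genes the same medians were -0.58, -0.57 and -0.34. Members lay below the reference in 37, 46 and 46 of 48 cases. The members' median was below that of all tested genes in all 3 libraries, the WT one included. Few members had no count: Gins3 and Pold3 in WT GC replicate 3, and Mcm10, Gins3, Prim2 and Dscc1 in p52ki GC replicate 2, where 0 counts allow up to 0.727 CPM. In both p52ki GC libraries at once, 0 of 48 members were at 0, against 16.5% of tested genes. Members and tested genes were not matched for level here, and whether the sparsity spared the members was not tested. The part of library sparsity in the genotype difference was not tested beyond these fits.

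The 4 naive B cell markers summed to 411, 632 and 578 CPM in WT GC libraries and to 1124 and 1324 CPM in p52ki GC libraries, and all 4 were called higher in p52ki. The 7 GC markers summed to 2380, 1717 and 2473 CPM in WT and 814 and 1813 CPM in p52ki, and 0 of them were called, with overlapping sums. The 6 plasma cell markers summed to 2658, 5898 and 4979 CPM in WT and 2747 and 2688 CPM in p52ki, within the WT range, with 1 called higher and 1 lower in p52ki. T cell markers summed to 5.77, 9.57 and 8.48 CPM in WT and 38.0 and 0.82 CPM in p52ki, and p52ki had 2 of 7 tested called higher and 1 lower; Cd4 and Cd8a were at 0 in both p52ki libraries. Myeloid markers summed to 30.5, 12.8 and 16.7 CPM in WT and 26.2 and 30.7 CPM in p52ki (0 of 8 called higher, 2 lower), and NK markers to 1.41, 0.611 and 4.35 CPM in WT and 20.8 and 0 CPM in p52ki (0 of 4 higher, 1 lower). Erythroid and platelet markers summed to 48.9, 62.1 and 235.9 CPM in WT and 325.6 and 372.0 CPM in p52ki, so both p52ki sums lay above every WT sum. Of the 9 markers in this list, Alas2 and Klf1 were at 0 in both p52ki libraries and do not share in that higher sum. The part of these cells in the lower replication genes was not tested.

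**Figure D4:**
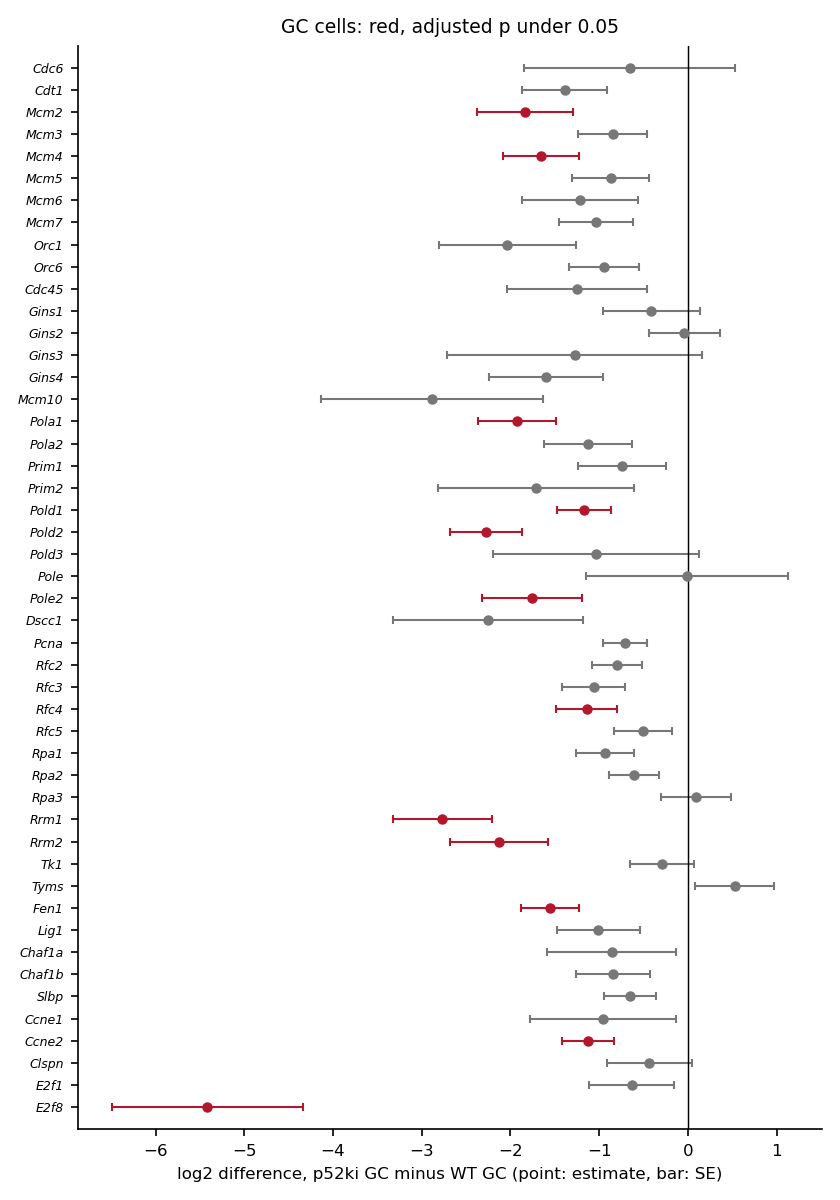
Log2 difference between p52ki and WT GC cells (horizontal axis) for the 48 replication genes, ordered by role; points are edgeR estimates, bars are SE, and red marks the 12 genes with adjusted p under 0.05. Estimates run from -5.42 (E2f8) to 0.53 (Tyms), and 46 of 48 lie left of 0.

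Licensing genes were lower in p52ki GC cells in all 10 estimates, and 2 passed the test. Mcm2 had 418, 63.9 and 325 CPM in WT and 51.4 and 99.2 CPM in p52ki GC cells, 3.57-fold lower (log2 -1.84 ± 0.54, adjusted p = 0.0329). Mcm4 had 374, 104 and 385 CPM in WT and 95.4 and 86.8 CPM in p52ki, 3.16-fold lower (log2 -1.66 ± 0.43, adjusted p = 0.0186). Both are subunits of the Mcm ring, and in both the WT libraries split into high values in replicates 1 and 4 and a low one in replicate 3; for Mcm2 that low value falls among the p52ki libraries. The other ring subunits had the same split, with Mcm6, the highest licensing gene, at 923, 89.8 and 891 CPM in WT and 148 and 396 CPM in p52ki. Mcm3 had 481, 168 and 419 CPM in WT and 217 and 179 CPM in p52ki, Mcm5 423, 89.6 and 341 CPM in WT and 165 and 146 CPM in p52ki, and Mcm7 366, 90.2 and 347 CPM in WT and 139.8 and 121 CPM in p52ki, with adjusted p of 0.142, 0.172 and 0.0988, and 0.211 for Mcm6. All 4 were lowest, of the 5 GC libraries, in WT GC replicate 3. Cdc6, the loader that brings the ring to the origin, had 109.8, 0.814 and 146 CPM in WT and 81.9 and 26.9 CPM in p52ki (log2 -0.66 ± 1.19, adjusted p = 0.739), with its lowest value again in WT GC replicate 3. Cdt1, its partner, had 43.6, 17.9 and 37.4 CPM in WT and 7.51 and 17.6 CPM in p52ki (adjusted p = 0.0582), and Orc1 and Orc6, subunits of the origin recognition complex, had adjusted p of 0.0821 and 0.112. The Mcm2 and Mcm4 calls were lost without WT GC replicate 1 (adjusted p = 0.109 and 0.0564), without replicate 4 (0.0767 and 0.0571) and without p52ki GC replicate 2 (0.159 and 0.0575). With a covariate for detected genes the log2 difference was -0.33 for Mcm2 and -0.58 for Mcm4 (adjusted p = 0.488 and 0.195), and against WT GC replicate 3 alone it was 0.24 and -0.18 (0.774 and 0.838).

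Of the 6 helicase activation genes none passed the test, with adjusted p from 0.0979 (Gins4) to 0.967 (Gins2), and 4 had the unadjusted p above 0.05. Gins4, a GINS subunit, had 64.2, 123 and 74.1 CPM in WT and 4.12 and 52.98 CPM in p52ki GC cells. Gins2, another subunit of the same complex, had 58.99, 32.6 and 66.6 CPM in WT and 43.4 and 59.4 CPM in p52ki, nearly the same in both genotypes, and Gins1 had 24.7, 26.1 and 34.9 CPM in WT and 17.7 and 25.3 CPM in p52ki. The 2 p52ki libraries disagreed on several of these genes. Cdc45, part of the active helicase, had 99.00, 103 and 119 CPM in WT and 3.63 and 86.1 CPM in p52ki, and Mcm10, a factor that helps start unwinding, 69.6, 18.5 and 43.4 CPM in WT and 0 and 11.6 CPM in p52ki.

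Primase and polymerase alpha start each new strand. Pola1, the catalytic subunit of polymerase alpha, had 201, 114 and 159 CPM in WT and 30.8 and 52.3 CPM in p52ki GC cells, 3.80-fold lower (log2 -1.93 ± 0.43, adjusted p = 0.0103). All p52ki values lay below all WT values. The call was lost without p52ki GC replicate 2 (adjusted p = 0.0531) and against WT GC replicate 3 alone (0.0573). Prim1, the catalytic primase, had 157, 116 and 189 CPM in WT and 37.5 and 146 CPM in p52ki (log2 -0.75 ± 0.50, adjusted p = 0.315), so that p52ki GC replicate 5 lay within the WT range. Pola2 and Prim2 had adjusted p of 0.13 and 0.301.

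Among polymerases delta and epsilon, 3 of 5 genes were called lower. Pold2 had 39.2, 57.02 and 37.3 CPM in WT and 6.30 and 11.97 CPM in p52ki GC cells, 4.84-fold lower (log2 -2.27 ± 0.41, adjusted p = 0.00237). WT GC replicate 3 was the highest of the WT libraries here, unlike for the Mcm genes, and both p52ki libraries lay below every other library of the study. Pold1, the catalytic subunit of polymerase delta, had 156, 106 and 102 CPM in WT and 39.2 and 68.1 CPM in p52ki, 2.26-fold lower (log2 -1.17 ± 0.30, adjusted p = 0.0188). Its call was lost when WT GC replicate 1 (adjusted p = 0.0612) or p52ki GC replicate 2 (0.109) was left out, and against WT GC replicate 3 alone (0.0563). Pole2, the second subunit of polymerase epsilon, had 40.4, 17.3 and 53.04 CPM in WT and 10.2 and 11.6 CPM in p52ki (log2 -1.76 ± 0.57, adjusted p = 0.0464), and its call held in 1 of 5 fits, the one without WT GC replicate 3. Its adjusted p was 0.0926 with WT GC replicate 1 left out, 0.132 with replicate 4, 0.112 with p52ki GC replicate 2 and 0.0587 with p52ki GC replicate 5. The call was also lost with RLE scaling (0.0503), no filter (0.199), the covariate for detected genes (0.161, log2 -1.13), immunoglobulin genes left out (0.0536) and against WT GC replicate 3 alone (0.464, log2 -0.66). Pole, the catalytic subunit of polymerase epsilon, was uneven within both genotypes, with 53.99, 14.5 and 28.3 CPM in WT and 59.6 and 4.76 CPM in p52ki (log2 -0.01 ± 1.14). Pold3 had an adjusted p of 0.566.

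Of the clamp and its loaders, Rfc4 alone passed the test. Rfc4, a subunit of the clamp loader, had 187, 306 and 256 CPM in WT and 92.3 and 134 CPM in p52ki GC cells, 2.21-fold lower (log2 -1.14 ± 0.35, adjusted p = 0.0376). The call was lost when WT GC replicate 3 (adjusted p = 0.0914), WT GC replicate 4 (0.0746) or p52ki GC replicate 2 (0.162) was left out, and with immunoglobulin genes left out (0.0558). Pcna had 481, 620.0 and 649 CPM in WT and 398 and 318 CPM in p52ki (log2 -0.70 ± 0.25, adjusted p = 0.0633), without overlap between genotypes. Rfc2, the loader subunit with the highest level in CPM, had 542, 674 and 629 CPM in WT and 221 and 483 CPM in p52ki (adjusted p = 0.0646), and Rfc5 246, 129.7 and 276 CPM in WT and 112 and 195 CPM in p52ki (adjusted p = 0.305). Rfc3 and Dscc1, a subunit of an alternative loader, had adjusted p of 0.0527 and 0.158.

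None of the 3 subunits of RPA, which coats single-stranded DNA, passed the test. Rpa1, the large subunit, had 309, 146 and 248 CPM in WT and 78.7 and 167 CPM in p52ki GC cells (log2 -0.93 ± 0.33, adjusted p = 0.0649). Rpa3, the small subunit, had 110.3, 235 and 194 CPM in WT and 141 and 242 CPM in p52ki (log2 0.09 ± 0.39, adjusted p = 0.898), and it is 1 of 2 members with a positive estimate. Rpa2 had 112, 88.6 and 166 CPM in WT and 72.2 and 87.9 CPM in p52ki, lower in both p52ki libraries than in any WT library, with an adjusted p of 0.154.

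The 4 nucleotide supply genes divided into a pair that was called lower and a pair that was not. Rrm1 and Rrm2 encode the subunits of ribonucleotide reductase, which makes deoxynucleotides. Rrm1 had 457, 82.7 and 458 CPM in WT and 49.4 and 48.2 CPM in p52ki GC cells, 6.81-fold lower (log2 -2.77 ± 0.55, adjusted p = 0.00523). The p52ki values were below all activated libraries of that genotype (97.3, 83.1 and 61.6 CPM), and WT GC replicate 3 lay within the range of WT activated cells (57.4, 91.2 and 88.2 CPM). Rrm2 had 580.3, 268 and 602 CPM in WT and 48.4 and 172 CPM in p52ki, 4.38-fold lower (log2 -2.13 ± 0.55, adjusted p = 0.0188). Its log2 difference was -1.50 without p52ki GC replicate 2, where the call was lost (adjusted p = 0.0965), -3.33 without p52ki GC replicate 5, and -1.28 against WT GC replicate 3 alone, where it was lost too (0.169). The Rrm1 difference was -0.75 against WT GC replicate 3 alone, where its call was lost (0.152), and -1.22 with a covariate for detected genes. Tyms had 74.8, 51.5 and 103 CPM in WT and 81.4 and 139 CPM in p52ki (log2 0.53 ± 0.45, adjusted p = 0.439). Tk1, thymidine kinase of the salvage route, had 96.8, 74.9 and 118 CPM in WT and 87.9 and 69.7 CPM in p52ki (log2 -0.29 ± 0.36, adjusted p = 0.611). The genotypes overlapped in both of these genes, which make thymidine nucleotides, and whether their difference was unlike that of Rrm1 and Rrm2 was not tested.

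**Figure D5:**
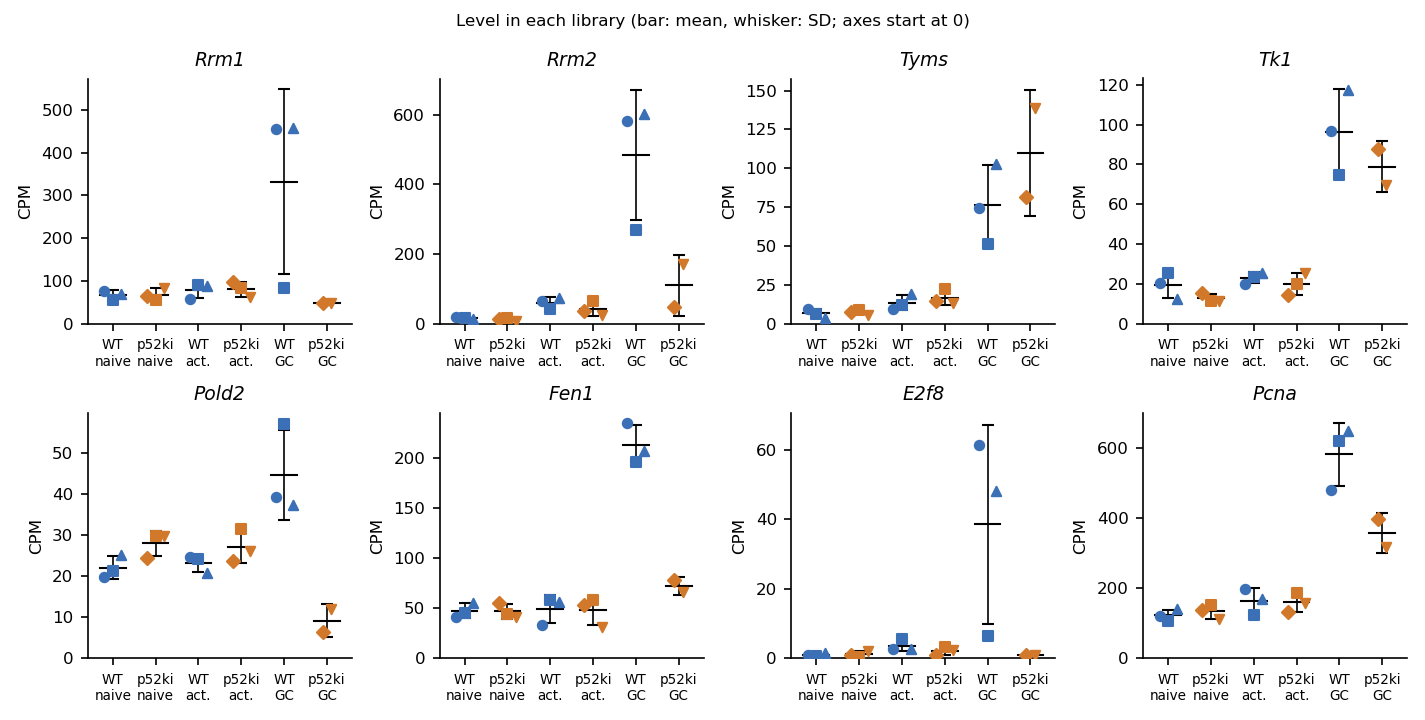
Level in CPM (vertical axes, from 0) of 8 replication genes in each of the 17 libraries by genotype and stage; points are libraries (marker shapes are replicates 1, 3 and 4 in WT and 2, 3 and 5 in p52ki), bars are means and whiskers SD. Rrm1, Pold2, Fen1 and E2f8 are below all WT GC libraries in both p52ki GC libraries, while Tyms and Tk1 overlap.

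Both Okazaki fragment genes were estimated lower and 1 was called. Fen1, the nuclease that trims the flap of each fragment, had 234, 195 and 207 CPM in WT and 78.5 and 65.9 CPM in p52ki GC cells, 2.94-fold lower (log2 -1.56 ± 0.32, adjusted p = 0.00646). The 3 WT libraries lay close together, replicate 3 included, and far above both p52ki libraries. Lig1, the ligase that seals the fragments, had 234, 56.8 and 224 CPM in WT and 76.3 and 94.3 CPM in p52ki (log2 -1.01 ± 0.47, adjusted p = 0.148), with WT GC replicate 3 lowest of all 5.

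No histone supply or chromatin assembly gene passed the test. Slbp, which binds the tail of histone messages, had 786, 505 and 1006 CPM in WT and 372 and 601 CPM in p52ki GC cells (log2 -0.65 ± 0.29, adjusted p = 0.131). Chaf1a had 73.7, 49.1 and 45.98 CPM in WT and 2.42 and 59.2 CPM in p52ki (adjusted p = 0.436), where the low mean rests on p52ki GC replicate 2, and Chaf1b, its partner in CAF-1, had an adjusted p of 0.178.

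In the cyclin E, E2F and checkpoint group, 2 of 5 genes were called lower. E2f8, an atypical E2F that represses E2F targets, had 61.3, 6.31 and 48.04 CPM in WT and 0.969 and 0.82 CPM in p52ki GC cells (log2 -5.42 ± 1.07, adjusted p = 0.00494). The p52ki values rest on 4 and 5 counts and lie in the range of naive cells, 0.857, 0.614 and 1.39 CPM in WT and 0.907, 0.492 and 2.09 CPM in p52ki. WT GC replicate 3 lay far below the other WT libraries, yet above both p52ki GC libraries, and against that library alone the E2f8 difference was -2.80 (adjusted p = 0.0424). Ccne2 had 157, 159 and 160.3 CPM in WT and 54.02 and 91.4 CPM in p52ki, 2.18-fold lower (log2 -1.13 ± 0.29, adjusted p = 0.0188), with the 3 WT libraries nearly equal. Among the 5 fits leaving out 1 library its call was lost without p52ki GC replicate 2 (adjusted p = 0.0848), and it was also lost when no filter on low counts was used (0.147). Ccne1, its paralog, had 63.7, 7.53 and 59.02 CPM in WT and 3.39 and 41.2 CPM in p52ki (adjusted p = 0.446), with both genotypes split. E2f1, an activating E2F, had 48.99, 36.04 and 33.3 CPM in WT and 31.01 and 19.8 CPM in p52ki (log2 -0.63 ± 0.48, adjusted p = 0.382). Clspn had 61.3, 62.1 and 48.8 CPM in WT and 55.5 and 29.5 CPM in p52ki (log2 -0.43 ± 0.48, adjusted p = 0.563), so p52ki GC replicate 2 lay within the WT range.

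The change from activated to GC cells was compared between genotypes by an interaction term. Of the members, 4 of 48 were called lower and 0 higher, where 4.97% of tested genes were called lower and 0.977% higher (5.95% in all). They were Pold2 (log2 -2.50 ± 0.52, adjusted p = 0.0111), Rrm1 (-2.80 ± 0.69, adjusted p = 0.0302), E2f8 (-4.69 ± 1.24, adjusted p = 0.0399) and Fen1 (-1.51 ± 0.42, adjusted p = 0.0458). The median over members was -1.08 against -0.35 over all tested genes, and 46 of 48 were negative. Pold2 was called in all 11 fits that left out 1 GC or activated library, Rrm1 in 4, Fen1 in 3 and E2f8 in 2. These last 3 were lost without WT GC replicate 1 or 4, WT activated replicate 1 or 4, p52ki GC replicate 2, or p52ki activated replicate 2 or 3, Fen1 and E2f8 also without p52ki GC replicate 5, and E2f8 without p52ki activated replicate 5. Their adjusted p reached 0.071 (Rrm1), 0.111 (Fen1) and 0.0843 (E2f8). The count of members called ran from 1 to 20 over these fits, with 15 when WT GC replicate 3 was left out (14.0% of tested genes lower) and 20 when p52ki GC replicate 5 was (15.0%). Over all tested genes the calls in either direction ran from 378 to 3102 in the same fits. DESeq2 called 8 members, and fits of these groups alone or limma voom with quality weights called 0, where the shares over all tested genes are not given here. Without the filter on low counts the edgeR calls of Pold2 (adjusted p = 0.0672) and Fen1 (0.0856) were lost. Fen1 was also lost with RLE scaling (0.0615) and with immunoglobulin genes left out (0.0531). With the covariate for detected genes Pold2 was kept (0.00271), and Fen1 (0.0546), Rrm1 (0.105) and E2f8 (0.118) were lost.

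In naive and in activated cells no replication gene was called different between the genotypes. Between p52ki and WT naive cells 0 of 48 members were called, and 0.0% of tested genes, by edgeR. DESeq2 and limma voom likewise called 0 members, and 1 member had an unadjusted p under 0.05. That member was Clspn, at 0.857, 1.23 and 1.01 CPM in WT and 0.34, 0.738 and 0.285 CPM in p52ki. Its values rest on few counts, as 1 count is worth 0.113, 0.123 and 0.0951 CPM in the p52ki naive libraries. In 6 members (Ccne1, Ccne2, Clspn, Prim2, Rfc2, Slbp) all p52ki naive libraries lay below all WT ones (5.48% of tested genes did so), in 0 they lay above (5.21%), and the members' median difference was -0.01. Between p52ki and WT activated cells 0 of 48 were called by edgeR, DESeq2 and limma voom (0.013% of tested genes by edgeR, 0.00651% higher and 0.00651% lower), 0 had an unadjusted p under 0.05, and Cdt1 and Prim2 lay above all WT libraries (3.15% of tested genes) and 0 below (2.95%).

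From naive to activated cells 0 of 48 members were called by edgeR in either genotype, where 0.319% of tested genes were called in WT (0.254% higher, 0.0651% lower) and 0.117% in p52ki (0.0847% higher, 0.0326% lower). Members with an unadjusted p under 0.05 numbered 9 in WT and 4 in p52ki. DESeq2 called 1 member higher in WT and 2 in p52ki, and limma voom with quality weights 11 and 6. The smallest p in WT belonged to Rrm2, from 18.97, 16.5 and 13.2 to 65.4, 41.6 and 74.5 CPM (log2 1.90 ± 0.47, adjusted p = 0.137), Clspn (1.39 ± 0.48, adjusted p = 0.457) and Orc1 (1.99 ± 0.69, adjusted p = 0.468). In p52ki it belonged to Clspn (2.23 ± 0.51, adjusted p = 0.174), Rrm2, from 14.7, 15.98 and 8.65 to 36.5, 64.1 and 24.8 CPM (1.67 ± 0.47, adjusted p = 0.41), and Tyms (1.16 ± 0.42, adjusted p = 0.762). Activated libraries lay above all naive ones in 11 members in WT (9.46% of tested genes) and 9 in p52ki (10.8%), and below in 4 (9.35%) and 2 (8.12%). The largest p belonged to Gins4 (0.04 ± 0.54) and Rfc2 (-0.01 ± 0.25) in WT and Orc1 (0.02 ± 0.65) and Gins3 (0.03 ± 1.23) in p52ki.

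A further 78 genes of replication were listed, of which 77 were tested, covering other origin and firing factors, fork and polymerase genes, nucleotide enzymes, chromatin copying, E2F partners and inhibitors of S phase. In p52ki against WT GC cells 17 of the 77 were called lower and 0 higher, where 12.2% and 3.75% of all tested genes were, with a median of -0.83 against -0.32. The smallest p belonged to Dbf4, the activator of the Cdc7 kinase that fires origins, at a log2 difference of -4.81 ± 0.71 (adjusted p = 0.000558), Orc5 of the origin recognition complex (-2.12 ± 0.33, adjusted p = 0.000735), Dnmt1, which copies DNA methylation (-2.44 ± 0.43, adjusted p = 0.00223), and Rbl1, a pocket protein that holds E2F factors (-1.37 ± 0.27, adjusted p = 0.00441). From activated to GC cells 31 were called higher and 3 lower in WT (5.8% and 7.75% of tested genes), and 19 higher and 6 lower in p52ki (6.34% and 19.3%). Fbxo5, an inhibitor of the anaphase-promoting complex, was among those higher in both, at 2.97 ± 0.35 in WT (adjusted p = 7.1e-05) and 2.71 ± 0.36 in p52ki (adjusted p = 0.000196). Of 25 mitosis genes, 21 were called higher in WT GC than activated cells and 18 in p52ki, against the same shares. In p52ki against WT GC cells 8 were called lower and 0 higher, with a median of -1.45. Mki67, a protein of dividing cells, differed by -1.17 ± 0.47 (adjusted p = 0.0988) between p52ki and WT GC cells, and Top2a, a topoisomerase of dividing cells, by -0.98 ± 0.48 (adjusted p = 0.169).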

How the data were processed

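RNA of sorted mouse spleen B cells was made into low-input SMART-Seq libraries, per the labels' protocols. The deposited table holds raw counts per gene; the submitters' processing notes name HISAT2 2.1.0, SAMtools 1.8, featureCounts of Subread 1.6.2 and the GRCm38 build, and the strand setting of counting is not given in the sources used here. Columns were matched to samples by title, and all 17 libraries were used. The filter on low counts, filterByExpr of edgeR with the 6 groups as design, kept 15352 of 55536 genes. A single quasi-likelihood model of edgeR 4.0.16 (R 4.3.3) with TMM scaling was fitted to all libraries, so the groups share an estimate of spread, with 8 contrasts. A gene was called at a Benjamini-Hochberg adjusted p under 0.05 over all tested genes. The SE was taken as the log2 difference over the root of its F statistic. CPM use TMM-scaled totals, and CPM per kb the union exon length. A count of 0 allows up to 3 counts, which covers counting error only. The code was tested on simulated counts. Alternatives were DESeq2 1.42.0, limma 3.58.1 (voom), other scalings, filters and designs, and leaving out single libraries. Members and lists were chosen with earlier results of these data known. Any member may be named; full GC values are given for the smallest and largest p and the highest level in each role and for a fixed set (Pcna, Mcm2 to Mcm7, Rrm1, Rrm2, Ccne1, Ccne2, E2f1, E2f8), with some others added after their values were seen. In stage contrasts the 3 smallest and 2 largest p are named, and of the other replication genes up to 4 with the smallest p; some results under this rule are not reported here.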

Additional observations from a re-analysis of the deposited data

Results flagged for a closer look

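The change from activated to GC cells differed between genotypes, by the interaction test of edgeR with adjusted p under 0.05, in 4 of the 48 replication genes and 5 of the 77 further ones, all lower in p52ki, where 4.97% of all tested genes were called lower and 5.95% in either direction. Among members the log2 difference of changes was -4.69 for E2f8, -2.80 for Rrm1, -2.50 for Pold2 and -1.51 for Fen1. Among the others it was -4.57 for Dbf4 (adjusted p = 0.0046), -2.21 for Orc5 (0.00565), -1.50 for E2f4 (0.0265), -2.19 for Dnmt1 (0.0302) and -1.35 for Rfc1 (0.0481). Both counts of calls are not far above the background share. The calls of E2f8, Rrm1 and Fen1 were lost without WT GC replicate 1 and without replicate 4. With the replicate block none of the 4 member calls was kept. Leaving out single libraries, estimates ran from -5.36 to -4.05 for Dbf4 and -2.37 to -1.87 for Orc5. For E2f4 they ran from -1.63 to -1.30 and for Dnmt1 from -2.51 to -1.85. Whether these further calls held is not given here.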

How the results depend on the processing

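The sparse GC libraries and the 2 p52ki GC replicates set the limits: the genotype difference in GC cells depends on which library is left out and on how the spread is estimated, and the cause was not tested. Settings also differ in how many genes they call over the whole table. The counts of members below are given without that share, so they do not show whether members stand out in a setting. Lower calls among members in p52ki against WT GC cells numbered 19 with DESeq2, 0 with limma voom, 0 with the groups compared alone and 5 against WT GC replicate 3 alone, which gave 4 higher; a covariate for each library's detected genes gave 2 higher and 11 lower, of which 9 are among the 12 (Mcm2, Mcm4 and Pole2 lost, Pcna and Rfc3 gained). In the interaction, lower calls numbered 8 with DESeq2, 0 with voom, 0 with the groups alone and 1 with the covariate, which gave 2 higher. For WT activated to GC cells the groups alone gave 23. For p52ki they gave 11 higher and 0 lower, voom 6 and 0, and no filter 0 lower. From naive to activated, WT had 1 higher call without a filter, 1 with DESeq2, 11 with voom (and 1 lower), 2 with the groups alone and 1 with the covariate; p52ki had 2 with DESeq2, 6 with voom and 3 with the groups alone. With single libraries left out, lower calls in GC cells ran from 4 to 26, in the interaction from 1 to 20, and p52ki GC calls from 13 to 21 higher and from 1 to 7 lower.

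Estimates of single genes that changed sign were as follows. In p52ki against WT GC cells with the covariate they were Cdc6 4.38, Mcm6 0.89, Gins2 0.48, Pole 0.93, Rfc5 0.061, Rpa3 -0.18, Lig1 0.21, Mcm3 0.048, Mcm5 0.29, Mcm7 0.14 and Ccne1 0.86. Against WT GC replicate 3 alone they were Cdc6 6.04, Mcm6 1.61, Gins2 0.66, Pole 1.16, Rfc5 0.25, Rpa3 -0.29, Tk1 0.081, Lig1 0.59, Mcm2 0.24, Mcm3 0.24, Mcm5 0.80, Mcm7 0.54 and Ccne1 1.57. Gins2 and Pole also changed to 0.051 and 0.14 with RLE scaling, 0.049 and 0.14 with DESeq2, 0.067 and 0.13 with the groups alone and 0.056 and 0.11 without immunoglobulin genes. From naive to activated, Rfc2 in WT was 0.0077 with voom, 0.0024 with the groups alone and 0.031 without immunoglobulin genes; in p52ki Orc1 was -0.15 with voom and -0.040 with the covariate, and Gins3 -0.51 with the covariate. In p52ki GC against activated cells Gins3 was 7.37 in the edgeR fit with the covariate (adjusted p = 0.00494). Its 2 p52ki GC libraries held 0 and 23.5 CPM, on either side of the activated range, so this estimate is not read as a rise. With single libraries left out, GC genotype estimates ran from -4.54 to 0.065 for Chaf1a, -0.30 to 0.16 for Gins2, -2.77 to 0.87 for Pole and -0.36 to 0.45 for Rpa3. In p52ki GC against activated cells they ran from -9.75 to 0.79 for Gins3 and -1.001 to 0.80 for Pola2. From naive to activated they ran from -0.023 to 0.13 for Gins3 and -0.32 to 0.78 for Orc1 in p52ki, and -0.049 to 0.13 for Gins4 and -0.13 to 0.14 for Rfc2 in WT. In the 250 bases before the start alone, 8 members held an E2F octamer.

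Whether replicate numbers pair the samples was judged by the correlation of deviations from group means. Naive and activated libraries of 1 number had r from 0.0786 to 0.281 in 6 pairs, 4 of them over 0.1, and 10 of these 12 libraries correlated best with their own number, a hint from the data and not from the design. The 5 GC and activated pairs ran from -0.229 to 0.068 and the 5 GC and naive pairs from -0.0863 to 0.06, with 0 over 0.1. With the replicate block, 0 members were called in the interaction, 28 higher in WT and 17 higher and 1 lower in p52ki from activated to GC cells, and Pola2 in the latter was -0.022. With the block as a random effect 15 were lower in p52ki GC cells, 9 of them among the 12; Mcm2 (adjusted p = 0.123), Mcm4 (0.0573) and Pole2 (0.0603) were not called, and Cdc6 was 0.056. Naive to activated cells had 0 calls in either genotype with the block. The shares over all tested genes in these block fits are not given here.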
